A study of Mus musculus with 8 samples.

Results

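The cytosolic ribosomal protein genes were followed in liver RNA-seq of diabetic mice. Protein-coding features were taken whose mouse symbol is Rpl or Rps with a number and at most a trailing letter, together with Rplp0, Rplp1, Rplp2 and Rpsa, while the ribosomal S6 kinases, Rps19bp1 and pseudogenes were left out. The rule found 80 of the 41388 features in the deposited tables, 49 of the large and 31 of the small subunit, on 19 chromosomes. It used symbols and biotypes, and no measured value. Rps3a1, Fau and Rack1 also encode core proteins of the cytosolic ribosome but have other symbols, and they are given beside the members where they bear on them.

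The mice were C57B/6J db/db littermates, which are deficient in the leptin receptor and become obese and diabetic. They were randomised at 5 weeks of age and received an adenovirus through the tail vein that carried green fluorescent protein (AdGFP, 4 libraries, genotype label control) or the NAD+ salvage enzyme NAMPT (AdNAMPT, 4 libraries, labelled as overexpression). The livers were taken at 10 weeks of age, and the series gives 4 to 5 weeks of overexpression. The paper names shorter times after adenovirus delivery, in its methods and in a legend on adipose tissue of db/db mice. Which time holds for these livers could not be settled. Both groups carried the db/db genotype and an adenovirus, so no lean and no uninjected liver was compared, and a tail-vein vector reaches other tissues beside the hepatocyte. db/db is taken from the sample titles.

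Ribosomal proteins and ribosomal RNA form the subunits that translate mRNA, and each protein is needed at about the same number of copies per ribosome. Their mRNAs begin with a C followed by a tract of pyrimidines, the terminal oligopyrimidine (TOP) motif, through which mTORC1 and LARP1 control their translation, so that their output of protein can change at a constant level of mRNA. The genes also left many processed pseudogenes in mammalian genomes. In a growing or regenerating liver the ribosomes of the hepatocyte are known to expand with protein synthesis.

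Promoter sequence is shown first because it holds what these genes share beyond their symbols. RefSeq promoters on GRCm38.p6, 250 bases before to 50 after an annotated start, were matched by symbol for 60 of the 80 members. A run of at least 6 pyrimidines that opens with C lay within 20 bases of the start in 53.3% of them, against 29% of the 27025 genes with a promoter, and a run of at least 8 in 35% against 12.8%. The following windows run from 60 bases before to 20 bases after the annotated first base, 5′ to 3′, with the pyrimidine run in capitals. Rps6 and Rpl13a are described below, and Rpl27a and Rpl15 were chosen for the length of their runs.
Rps6, chr4:86857348-86857427, strand minus: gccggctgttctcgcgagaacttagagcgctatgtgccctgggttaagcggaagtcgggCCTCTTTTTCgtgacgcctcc
Rpl13a, chr7:45128726-45128805, strand minus: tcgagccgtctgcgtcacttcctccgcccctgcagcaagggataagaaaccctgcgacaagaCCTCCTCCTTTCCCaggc
Rpl27a, chr7:109519135-109519214, strand plus: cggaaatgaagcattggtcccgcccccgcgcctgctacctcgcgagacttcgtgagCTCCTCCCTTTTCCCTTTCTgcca
Rpl15, chr14:18270967-18271046, strand minus: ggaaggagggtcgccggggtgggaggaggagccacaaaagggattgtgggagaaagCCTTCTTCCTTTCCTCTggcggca
The runs were 10 bases long in Rps6, 14 in Rpl13a, 20 in Rpl27a and 17 in Rpl15. A run of at least 6 began exactly at the annotated first base in 18.3% of members and 2.05% of all genes, and starts may be annotated a few bases away from where transcription begins.

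Short motifs were searched on both strands of these promoters, over their whole length. CCGGAAG, letters bound by ETS factors, was present in 41.7% of the 60 members and 9.93% of all promoters. GGGCGG, known for SP1, was in 60% against 38.2%, and AAGATGGC, known for YY1, in 8.33% against 3.19%. TATAAA was in 10% against 15.7% and CCAAT in 31.7% against 41.1%. The motifs were counted separately and may overlap. These are matches of letters only.

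The 80 genes together took 0.356% to 0.463% of the 12006713 to 19879814 counts of a library. Their levels, as deposited RPKM (reads per kilobase of exon, scaled to the total of the library), spanned several orders of magnitude, although the ribosome holds their products at like numbers. The length in RPKM is that of all annotated exons of a gene and not of 1 mRNA, which bears on the order of the genes. Rpl13a had a mean of 163 CPM (counts scaled to the library total) and 53.8 RPKM, and Rps27l 102 CPM and 125 RPKM. Mean RPKM over the 8 libraries was under 1 for 15 members, 1 to 10 for 26, 10 to 100 for 26 and above 100 for 13, with a median of 9.26. The 5 members with the most reads, Rpl4, Rplp1, Rpl8, Rps3 and Rps14, held 35.9% of all reads on members, and the top 10 held 56.0%. The spread between libraries of a member was small beside the distance between the ends of this range.

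**Figure D1:**
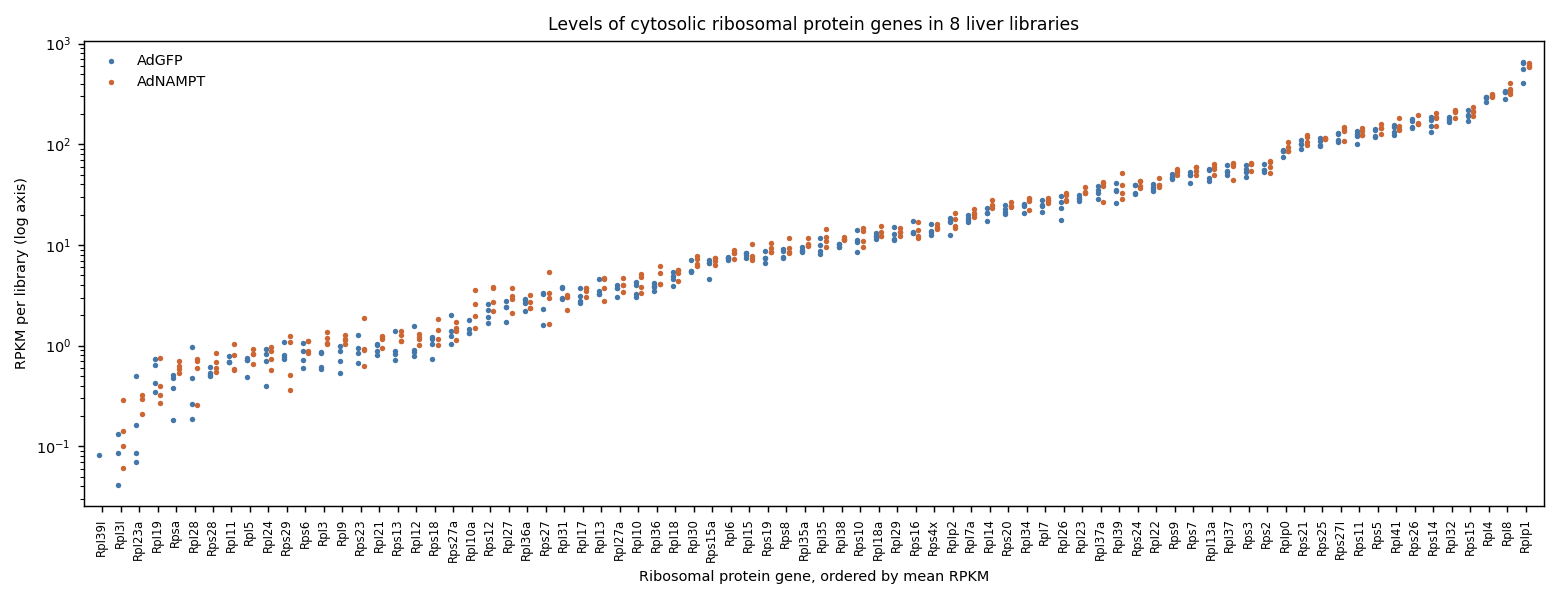
RPKM of the genes in each library (log axis), with AdGFP in blue and AdNAMPT in orange and the genes ordered by their mean. Rpl10l, with no read, and single values of 0 cannot be drawn on this axis. The members that passed the filter run from a mean of 0.502 RPKM (Rpsa) to 590.4 RPKM (Rplp1).

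Rplp1, which encodes an acidic protein of the stalk that recruits elongation factors, had the highest level. It stood at 640.3, 409, 659 and 563 RPKM in AdGFP 1 to 4 and 596, 620.1, 645 and 590.1 RPKM in AdNAMPT 1 to 4. AdGFP 2 was the low library, and the other 7 lay close together. Rpl8, a large-subunit protein near the peptidyl transferase centre, followed with 331, 284, 339 and 333 RPKM in AdGFP 1 to 4 and 410.2, 353, 338 and 319 RPKM in AdNAMPT 1 to 4. Rpl4, whose protein lines the exit tunnel of the nascent chain, had 289, 264, 296 and 292 RPKM in AdGFP 1 to 4 and 314, 301, 297 and 312 RPKM in AdNAMPT 1 to 4. Its libraries differed less among themselves than those of Rplp1. The lowest members that passed the filter were Rpsa, which encodes a small-subunit protein also described as a laminin receptor, at 0.502 RPKM, Rpl11 at 0.729 RPKM and Rpl5 at 0.741 RPKM. Rpl5 and Rpl11 bind 5S rRNA together and can hold back Mdm2, the ubiquitin ligase of p53. Rpsa was read at 5, 10, 15 and 13 reads in AdGFP 1 to 4 and 12, 16, 26 and 20 reads in AdNAMPT 1 to 4. Per kilobase of annotated exon, the uniquely placed reads of Rplp1 thus exceeded those of Rpsa 1176-fold.

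These levels count only part of each mRNA. The authors kept reads of 50 bases that aligned to a single place, so a read whose sequence also lies in a pseudogene or a related gene was dropped. For each gene the share of 50-base windows of its transcript that occur, on either strand, in no transcript of another annotated gene was computed from GENCODE M21. Its median was 48.9% over the 80 members and 99.96% over 21390 protein-coding genes. Under 50% of windows were unique in 41 of the 80 members, against 8.83% of protein-coding genes.

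The following 50-base coding windows on GRCm38, from GENCODE M21 transcripts, show this. For Rpl23a, Rpl3 and Rps6 the window is the coding stretch that the most other genes hold, and for Rpl4 a stretch that no other gene holds. All 4 are in exons.
Rpl23a, chr11:78181504-78181553, strand minus: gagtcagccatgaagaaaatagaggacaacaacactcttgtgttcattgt
Rpl3, chr15:80080478-80080527, strand minus: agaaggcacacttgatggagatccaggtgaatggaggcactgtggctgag
Rps6, chr4:86854774-86854823, strand minus: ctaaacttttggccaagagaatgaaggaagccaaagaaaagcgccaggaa
Rpl4, chr9:64174824-64174873, strand plus: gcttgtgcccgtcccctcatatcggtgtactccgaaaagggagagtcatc
The Rpl23a window was also found in 18 other annotated genes, that of Rpl3 in 16 and that of Rps6 in 9. Of the coding windows within an exon, 648 of 813 were unique in Rpl4, 50 of 772 in Rpl3, and none of 284 in Rpl23a or of 545 in Rps6. Rpl23a had 0 to 6 reads in a library and Rps6 14 to 28, whereas Rpl4 had 5317 to 8388.

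Leaving out Rpl3l, Rpl10l and Rpl39l, which are known from muscle or testis, level and uniqueness went together over the other 77 members. The median of mean RPKM was 1.95 in the 21 members with under 25% of windows unique, 12.4 in the 20 with 25 to 50%, 22.8 in the 27 with 50 to 75% and 58.4 in the 9 with at least 75%. Spearman's rho was 0.556 over those 77 members and 0.395 over all 80, across genes that share their libraries. A level under 5 RPKM was found in 18 of the 21 least unique members and in none of the 9 most unique. Rplp1 does not follow the order, with 40% unique windows and the highest level. The levels are thus those of uniquely placed reads per kilobase of all annotated exons. A comparison of the same gene between groups uses the same windows and the same exon length on both sides.

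**Figure D2:**
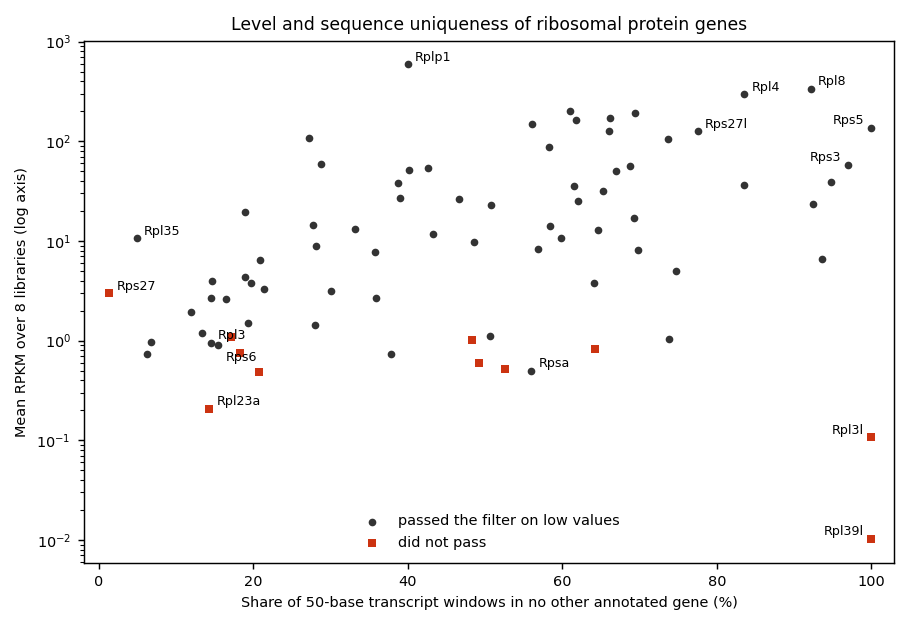
Mean RPKM over the 8 libraries (log axis) against the percent of 50-base transcript windows found in no other annotated gene, for the 79 members with a read. Members that did not pass the filter on low values are red squares, and most members with a low share of unique windows sit low, with Rplp1 and Rpl35 among the exceptions.

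The pair Rps27 and Rps27l gives an example. Both encode a small zinc-finger protein of the small subunit, Rps27l being the copy known as a p53 target, and the coding sequences, without the stop codon, are 252 bases in each. Bases that differ are in capitals.
Rps27, coding part within chr3:90212728-90213615, strand minus: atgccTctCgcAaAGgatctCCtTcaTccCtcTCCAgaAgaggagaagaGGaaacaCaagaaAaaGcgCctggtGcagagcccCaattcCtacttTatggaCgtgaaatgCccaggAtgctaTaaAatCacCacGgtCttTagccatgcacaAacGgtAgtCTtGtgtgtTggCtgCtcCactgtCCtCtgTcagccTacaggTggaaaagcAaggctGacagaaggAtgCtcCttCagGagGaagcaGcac
Rps27l, coding part within chr9:66946175-66949354, strand plus: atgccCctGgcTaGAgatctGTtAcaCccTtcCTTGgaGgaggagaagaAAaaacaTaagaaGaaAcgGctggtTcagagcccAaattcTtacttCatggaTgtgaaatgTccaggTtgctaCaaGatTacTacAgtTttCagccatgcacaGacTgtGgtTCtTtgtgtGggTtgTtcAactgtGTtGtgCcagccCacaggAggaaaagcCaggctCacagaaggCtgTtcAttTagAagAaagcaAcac
They differ at 60 positions, an identity of 76.2%, and their longest shared stretch was 11 bases, so no 50-base read of the coding part fits both. Rps27l had 77.6% unique windows and 125 RPKM, and Rps27 1.35% and 2.98 RPKM. Rps27 was read at 6, 12, 14 and 8 reads in AdGFP 1 to 4 and 5, 20, 17 and 13 reads in AdNAMPT 1 to 4.

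Pseudogenes named after a member numbered 250 in the files, and 143 of them had at least 1 read. 85.5% of their reads fell on 4, among them Rpl3-ps1 and Rpsa-ps10. Rpl3-ps1 had 290 to 675 reads in a library, while Rpl3 itself had 25 to 65. Rpsa-ps10 had 329 to 537, while Rpsa had 5 to 26. Both pseudogenes thus collected more unique reads than the genes they are named for in every library. Exons of 27 members overlapped another feature, among them 62.3% of the exonic bases of Rpl23a, which meets Tlcd1, and 29 members held a snoRNA gene. Reads in such overlaps are ambiguous, except where the other feature lies on the opposite strand and strand was used. The strand setting of the counting is not given in the sources used here.

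Genes above 1 CPM (counts scaled to the total of the library) in at least 3 libraries were tested, which left 68 of the 80 members among 12270 genes. The 12 that did not pass were Rpl10l, Rpl39l, Rpl3l, Rpl19, Rpl23a, Rpl24, Rpl28, Rps13, Rps23, Rps27, Rps28 and Rps29. Rpl10l, a copy of Rpl10 known from testis, had no read in any library, where 3 counts would be 0.151 to 0.250 CPM. Rpl39l, a copy of Rpl39 also known from testis, had 1 read, in AdGFP 1. Rpl3l, the muscle copy of Rpl3, was read at 1, 2, 0 and 3 reads in AdGFP 1 to 4 and 2, 7, 2 and 4 reads in AdNAMPT 1 to 4. All of the windows of Rpl3l and Rpl39l were unique. The other 9 encode standard parts of the ribosome, such as Rpl19 and Rpl23a at the tunnel exit and Rps23 at the decoding centre, and none of them had more than 20 reads in a library. In a fit without the filter their unadjusted p ran from 0.237 to 0.864.

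Some features of the whole series stand beside these genes. Mouse Nampt was at 133 ± 21.7 CPM over AdGFP and 154 ± 25.3 CPM over AdNAMPT (SD, n = 4 per group, limma adjusted p = 0.915), so its counts do not separate the groups and the names used here are those of the labels. The nuclear locus Gm42418, which overlaps ribosomal RNA, took 0.996% to 2.25% of counts in AdGFP and 0.200% to 0.233% in AdNAMPT, features annotated as rRNA 1.77% to 2.63% and 0.863% to 1.62%, and the mitochondrial genome 4.01% to 5.65% and 3.44% to 4.23%. The summed CPM of 6 hepatocyte markers was 88725 to 111628 in AdGFP and 88763 to 111532 in AdNAMPT, with none at 0, and albumin makes up most of it. Of the 6, 4 had estimates below 0 (median -0.19, 1 at unadjusted p under 0.05, none called), and Tat, which degrades tyrosine, was the one at that level, with 1982 ± 420.0 CPM over AdGFP and 1457 ± 230.2 CPM over AdNAMPT (SD, n = 4 per group, limma adjusted p = 0.318). All 6 Kupffer cell markers had estimates below 0 (median -0.44, none called), with summed CPM of 211 to 264 and 154 to 254. At an unadjusted limma p under 0.05, 3 of them were lower (50%, beside 5.04% of all genes). Col1a1 of 6 stellate markers and Sox9 of 4 cholangiocyte markers were higher at that level, beside 4.65% of all genes. No tested endothelial, neutrophil or erythroid marker reached it in either direction, and none of these lists held a called gene. None of 8 lymphocyte markers, cells whose mRNA is rich in ribosomal proteins, passed the filter, and their summed CPM was 0.658 to 2.15 and 1.83 to 3.71. The part of these shifts in the members' values was not tested. In bulk RNA, fewer cells of a type and less RNA per cell cannot be told apart.

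The comparison of AdNAMPT with AdGFP asks whether the transcripts of the protein synthesis machinery differ after the NAMPT vector. No ribosomal protein gene passed the threshold in either direction (limma, adjusted p of at most 0.05), and the smallest adjusted p among the 68 members was 0.426. Over all 12270 genes 2 were called higher and 32 lower, which is 0.0163% and 0.261%. At an unadjusted p under 0.05, 2 members, Rpl3 and Rpl9, were higher and none was lower, 2.94% and 0% of the 68 beside 4.65% and 5.04% of all genes. That share lies at or below the background. edgeR's quasi-likelihood test called none and put 3 members higher at that unadjusted level, Rpl3, Rpl9 and Rpl10a (4.41%, beside 3.798% of all genes). DESeq2 called none and put 2, Rpl3 and Rpl10a (2.94%, beside 3.07%). No member was lower in either, beside 4.21% and 3.77% of all genes. Rpl10a, of the large subunit, is named because it passed this level, which was seen in the values.

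The estimates were small and mostly above 0. Log2 fold changes, AdNAMPT over AdGFP, ran from -0.21 (Rpl31) to 0.53 (Rpl9) and, in a member that passed the filter only through AdNAMPT libraries, 0.66 (Rpsa). Of the estimates, 54 of 68 were above 0, with a median of 0.047, beside 0.0015 and 50.4% above 0 for all genes. With library size as the only scaling 65 of 68 were above 0 and the median was 0.13, beside 71.8% and 0.086 for all genes. Without AdGFP 2 the number above 0 was 42 of 68, without AdGFP 4 or AdNAMPT 2 it was 43, and without AdGFP 3 it was 62. Large-subunit genes had a median of 0.047 (n = 42) and small-subunit genes 0.047 (n = 26). The 95% confidence interval lay within a 1.5-fold change in either direction for 56 of the 68 members and within 2-fold for 67. Rpsa was the member whose interval reached past 2-fold. The largest estimates sat on the thinnest counts. The 18 members with a mean under 5 CPM had a median of 0.19 and a median SE of 0.21, and the 38 members of at least 20 CPM 0.043 and 0.089. Among the latter no estimate lay outside -0.035 to 0.21.

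**Figure D3:**
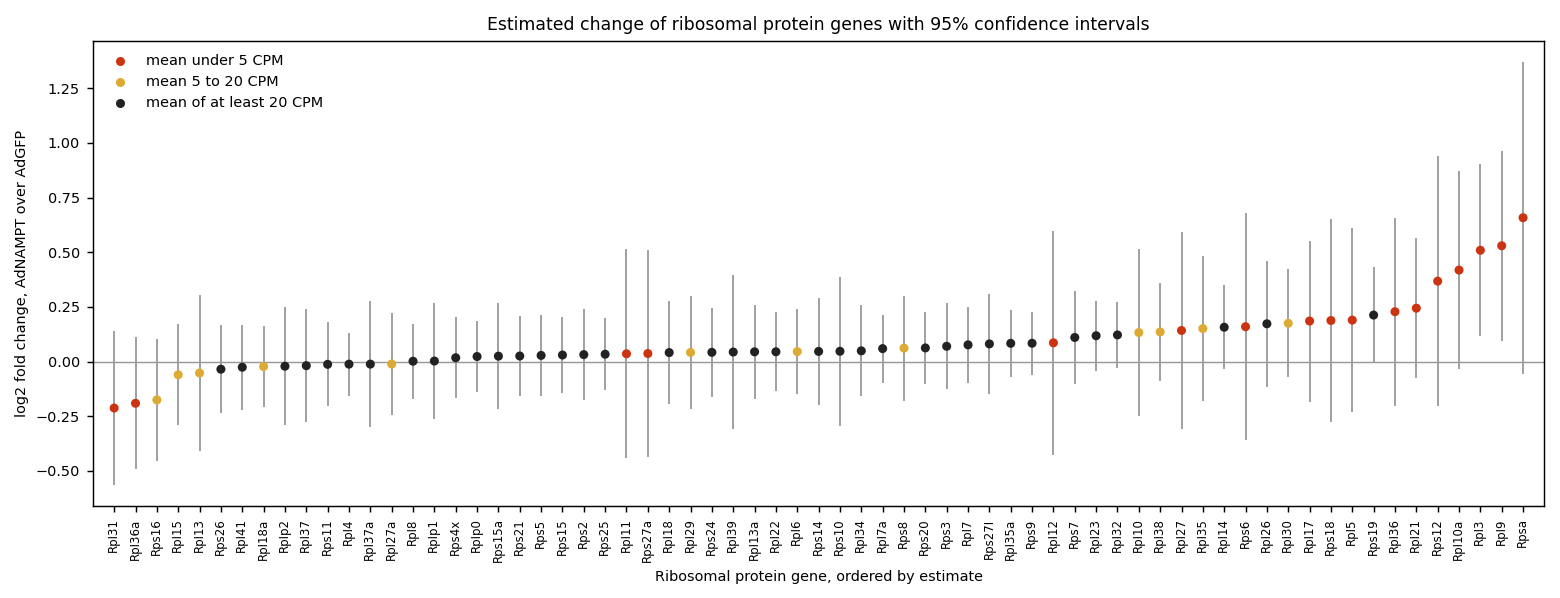
Log2 fold change of the tested genes, AdNAMPT over AdGFP, with limma's 95% confidence interval as a bar, ordered by the estimate and coloured by mean CPM. The estimates at the right end, from Rps12 to Rpsa, belong to genes with a mean under 5 CPM and have wide intervals.

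Rpl3, whose protein reaches into the peptidyl transferase centre, lies at chr15:80077794-80091868 on GRCm38. It was read at 39, 27, 45 and 25 reads in AdGFP 1 to 4 and 51, 54, 65 and 56 reads in AdNAMPT 1 to 4, or 2.67, 1.91, 2.69 and 1.83 CPM in AdGFP 1 to 4 and 4.25, 3.69, 3.27 and 3.30 CPM in AdNAMPT 1 to 4. Each AdNAMPT library was above all 4 AdGFP libraries. The difference had an unadjusted p of 0.0157 and did not pass the correction (log2 fold change 0.51, SE 0.18, limma adjusted p = 0.426). Only 14.4% of its windows were unique, and the pseudogene Rpl3-ps1 had 28.6 ± 1.96 CPM over AdGFP and 30.5 ± 5.27 CPM over AdNAMPT (SD, n = 4 per group, log2 fold change 0.050, limma adjusted p = 0.920). Without AdGFP 4 the unadjusted p of Rpl3 was 0.0538 and without AdNAMPT 2 it was 0.0512 in the limma fit across all genes.

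Rpl9 (large subunit, chr5:65388364-65391443) stood at 1.64, 3.04, 2.75 and 2.19 CPM in AdGFP 1 to 4 and 3.58, 3.21, 3.92 and 3.54 CPM in AdNAMPT 1 to 4. On this scale the groups did not overlap, and after TMM scaling 1 AdNAMPT library fell among the AdGFP values (log2 fold change 0.53, SE 0.20, limma adjusted p = 0.453). Its unadjusted p was 0.0215 with all libraries. Without AdGFP 1, the lowest library, it was 0.0712 in the same kind of fit, and 6.68% of its windows were unique. Rps19, the small-subunit gene first tied to Diamond-Blackfan anaemia, came next by p value. It was at 34.7, 34.6, 41.2 and 30.8 CPM in AdGFP 1 to 4 and 39.98, 43.6, 48.8 and 39.97 CPM in AdNAMPT 1 to 4, with AdGFP 3 above the lowest AdNAMPT libraries (log2 fold change 0.21, SE 0.10, limma adjusted p = 0.534). Rpsa had the largest estimate, at 0.342, 0.706, 0.896 and 0.95 CPM in AdGFP 1 to 4 and 0.999, 1.09, 1.31 and 1.18 CPM in AdNAMPT 1 to 4. No AdGFP library of Rpsa was over 1 CPM, so it passed the filter through AdNAMPT 2, 3 and 4 alone, and its direction is in part set by the filter. In CPM each AdNAMPT value was above the AdGFP values, and AdGFP 1 was far below the rest (log2 fold change 0.66, SE 0.32, limma adjusted p = 0.557).

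On the lower side no member reached an unadjusted p under 0.05, and the 3 with the smallest p overlapped between groups. Rpl31, at the exit of the tunnel, stood at 3.69, 4.73, 3.64 and 4.75 CPM in AdGFP 1 to 4 and 2.83, 4.03, 3.77 and 3.83 CPM in AdNAMPT 1 to 4, a log2 fold change of -0.21 (95% confidence interval -0.56 to 0.14). Rpl36a, a large-subunit protein encoded on chromosome X, stood at 4.85, 3.67, 4.72 and 4.38 CPM in AdGFP 1 to 4 and 5.33, 3.96, 3.92 and 4.48 CPM in AdNAMPT 1 to 4, a change of -0.19 (95% confidence interval -0.49 to 0.11). These CPM do not show that decrease. After TMM scaling the means of Rpl36a were 4.68 in AdGFP and 4.38 in AdNAMPT, and AdNAMPT 1, its highest library, had the lowest sample weight (0.440). Rps16, of the small subunit, stood at 10.6, 14.1, 10.6 and 10.96 CPM in AdGFP 1 to 4 and 13.7, 11.3, 9.91 and 9.49 CPM in AdNAMPT 1 to 4, a change of -0.18 (95% confidence interval -0.45 to 0.10). AdGFP 2 and AdNAMPT 1 were the high libraries of Rps16, and the other 6 lay between 9.49 and 11.3 CPM.

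Separation of the groups depended on the scale. After TMM scaling the libraries of the groups did not overlap for 2 members, Rpl3 and Rpl38, both higher in AdNAMPT, 2.94% of 68 beside 2.06% of all genes, and for no member in the lower direction, beside 2.7%. In the CPM as deposited, without that scaling, 8 members were apart and higher, namely Rpl3, Rpl4, Rpl9, Rpl14, Rpl23, Rpl35a, Rpl38 and Rpsa, 11.8% beside 7.36% of all genes, and none was lower, beside 0.856%. Of these, Rpl14, Rpl23, Rpl35a and Rpl38 are named because their libraries did not overlap, which was seen in the values. Rpsa passed the filter only through AdNAMPT libraries, by these same CPM, so its place among the 8 is in part set by the filter. Rpl38, known for its part in the translation of Hox mRNAs, had 5.54, 5.15, 5.50 and 5.19 CPM in AdGFP 1 to 4 and 6.08, 6.28, 6.44 and 6.25 CPM in AdNAMPT 1 to 4. Its libraries lay close together within each group (log2 fold change 0.14, SE 0.10, limma adjusted p = 0.718). Rpl4 shows the effect of the scale, with 411, 375, 421 and 415 CPM in AdGFP 1 to 4 and 447, 428, 422 and 443 CPM in AdNAMPT 1 to 4. In CPM each AdNAMPT library was above every AdGFP library, and after TMM scaling its log2 fold change was -0.012 (95% confidence interval -0.16 to 0.13).

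The stalk genes, which recruit the elongation factors, did not separate. Rplp0, the base of the stalk, had a mean of 138 ± 10.2 CPM over AdGFP and 154 ± 14.4 CPM over AdNAMPT (SD, n = 4 per group), a log2 fold change of 0.023 (95% confidence interval -0.14 to 0.18). Rplp1 had a mean of 281 ± 56.2 CPM over AdGFP and 303 ± 12.5 CPM over AdNAMPT (SD, n = 4 per group), a change of 0.0023 (95% confidence interval -0.26 to 0.27). Rplp2 stood at 36.1, 25.9, 38.8 and 34.9 CPM in AdGFP 1 to 4 and 31.7, 37.3, 43.4 and 30.7 CPM in AdNAMPT 1 to 4, where AdGFP 2 and AdNAMPT 4 were low and AdGFP 3 and AdNAMPT 3 high, a change of -0.021 (95% confidence interval -0.29 to 0.25). The sign of Rplp2 depends on the scaling, as library size alone gives 0.062. Of the 4 stalk genes, Rpl12 included, 3 had estimates above 0 (median 0.013) and none was called.

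The 5S particle genes were thinly read. Rpl5 was counted at 28, 40, 47 and 40 reads in AdGFP 1 to 4 and 39, 38, 73 and 55 reads in AdNAMPT 1 to 4, a log2 fold change of 0.19 (95% confidence interval -0.23 to 0.61), with AdGFP 1 low. Rpl11 was counted at 27, 26, 31 and 29 reads in AdGFP 1 to 4 and 19, 41, 43 and 26 reads in AdNAMPT 1 to 4, a change of 0.035 (95% confidence interval -0.44 to 0.51). Rps6, the substrate of the S6 kinases that lie downstream of mTORC1, was counted at 14, 16, 28 and 19 reads in AdGFP 1 to 4 and 21, 26, 28 and 23 reads in AdNAMPT 1 to 4, a change of 0.16 (95% confidence interval -0.36 to 0.68). None of the 3 exceeded 73 reads in a library, and each interval spans both directions. The unique share of their windows was 6.16% for Rpl5, 37.8% for Rpl11 and 15.4% for Rps6.

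Rpl10, which joins the large subunit late and in the cytoplasm, had a mean of 7.48 ± 1.21 CPM over AdGFP and 8.73 ± 1.74 CPM over AdNAMPT (SD, n = 4 per group), a log2 fold change of 0.13 (95% confidence interval -0.25 to 0.51). The groups overlapped, since AdGFP 2 was above AdNAMPT 3 and AdNAMPT 4. Rps27a, made as a fusion with ubiquitin, had a mean of 2.80 ± 0.820 CPM over AdGFP and 2.84 ± 0.488 CPM over AdNAMPT (SD, n = 4 per group), a change of 0.037 (95% confidence interval -0.44 to 0.51). Rpl13a, also known for a role outside the ribosome in silencing inflammatory mRNAs, had a mean of 153 ± 20.3 CPM over AdGFP and 173 ± 17.8 CPM over AdNAMPT (SD, n = 4 per group), a change of 0.044 (95% confidence interval -0.17 to 0.26). Rpl39, the small protein of the exit tunnel, stood at 49.3, 37.8, 59.3 and 50.4 CPM in AdGFP 1 to 4 and 46.6, 57.1, 74.0 and 41.0 CPM in AdNAMPT 1 to 4. As with Rplp2, AdGFP 2 and AdNAMPT 4 were low and AdGFP 3 and AdNAMPT 3 high, and the change was 0.043 (95% confidence interval -0.31 to 0.40). Rps27l had a mean of 96.4 ± 9.93 CPM over AdGFP and 108 ± 13.8 CPM over AdNAMPT (SD, n = 4 per group), a change of 0.081 (95% confidence interval -0.15 to 0.31). Rpl8 had a mean of 277 ± 22.0 CPM over AdGFP and 306 ± 33.9 CPM over AdNAMPT (SD, n = 4 per group), a change of 0.0014 (95% confidence interval -0.17 to 0.17).

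By role, the genes mutated in Diamond-Blackfan anaemia, an inherited failure of red cell production, had 16 of 19 members tested, 13 with estimates above 0 and a median log2 fold change of 0.065. The genes around the exit of the nascent chain had 6 of 8 tested, 4 above 0 and a median of 0.089. Those of the mRNA channel and decoding site had 3 of 4 tested, all 3 above 0, with a median of 0.032. No gene of these lists was called.

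The libraries differed in the whole set of genes at once, also within a group. As a share of all counts the 80 genes took 0.412, 0.356, 0.436 and 0.386% in AdGFP 1 to 4 and 0.463, 0.442, 0.456 and 0.404% in AdNAMPT 1 to 4. AdGFP 2 was lowest and AdNAMPT 1 highest, and AdGFP 1 and AdGFP 3 lay above AdNAMPT 4, so the groups overlapped. The 95% Wilson interval of the share ran from 0.353% to 0.360% for AdGFP 2, and such an interval covers counting error only. Group means were 0.397 ± 0.0343% and 0.441 ± 0.0264% (SD, n = 4 each), a difference of 0.0438 percentage points. Of the counts outside rRNA features, the mitochondrial genome and Gm42418 the shares were 0.423 ± 0.0315% and 0.459 ± 0.0287%, and the difference was 0.0361 points.

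After TMM scaling, the median deviation of the 68 members from their own means over the 8 libraries was -0.024, -0.11, 0.073 and -0.10 (log2) in AdGFP 1 to 4 and 0.11, 0.062, 0.082 and -0.055 in AdNAMPT 1 to 4. The corresponding medians over all genes lay between 0.0005 and 0.014. In AdGFP 3, 53 of the 68 members were above their own mean, and in AdGFP 4 16 were, while AdNAMPT 1, 2 and 3 had 48, 49 and 48 and AdNAMPT 4 had 25. AdGFP 2 and AdGFP 3, both given the same vector, were the lowest and the highest library of their group. The 38 members of at least 20 CPM had a median SD between libraries of 0.138 in AdGFP and 0.120 in AdNAMPT on the log2 scale, beside 0.108 and 0.134 for the 4778 genes in the same range of level.

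**Figure D4:**
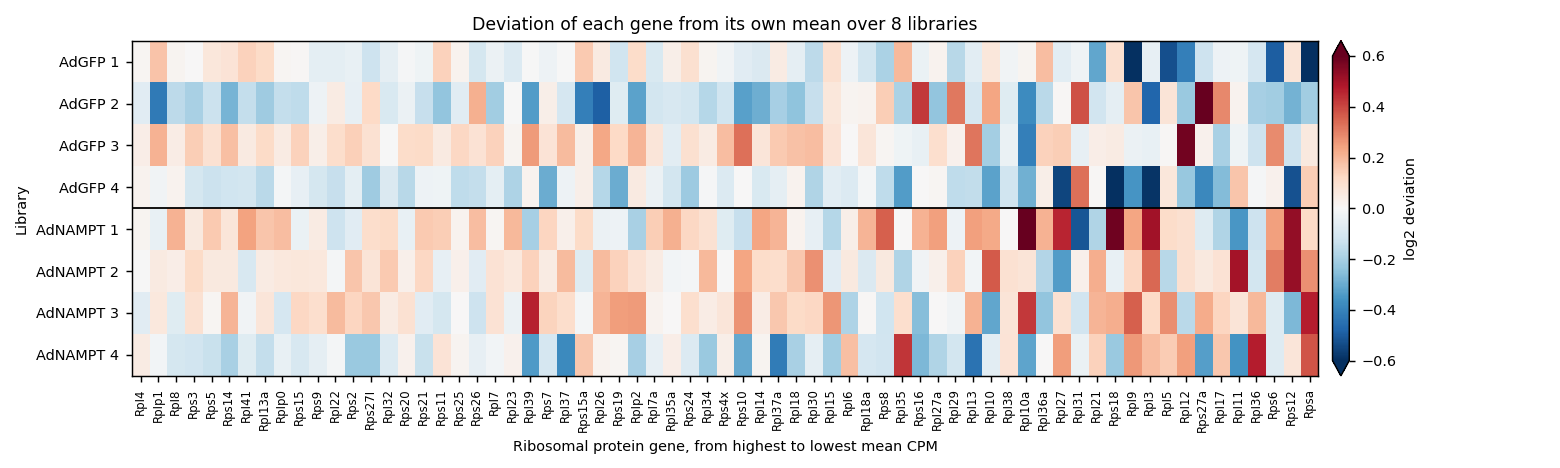
Deviation of the tested genes from their own means over the 8 libraries (log2, TMM scale), with libraries as rows and genes as columns from the highest to the lowest mean CPM. AdGFP 2 and AdGFP 4 are mostly blue (below the mean), AdGFP 3 and AdNAMPT 1 to 3 mostly red, AdNAMPT 4 more often blue than red, and the deepest colours are at the thinly read genes on the right.

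**Figure D5:**
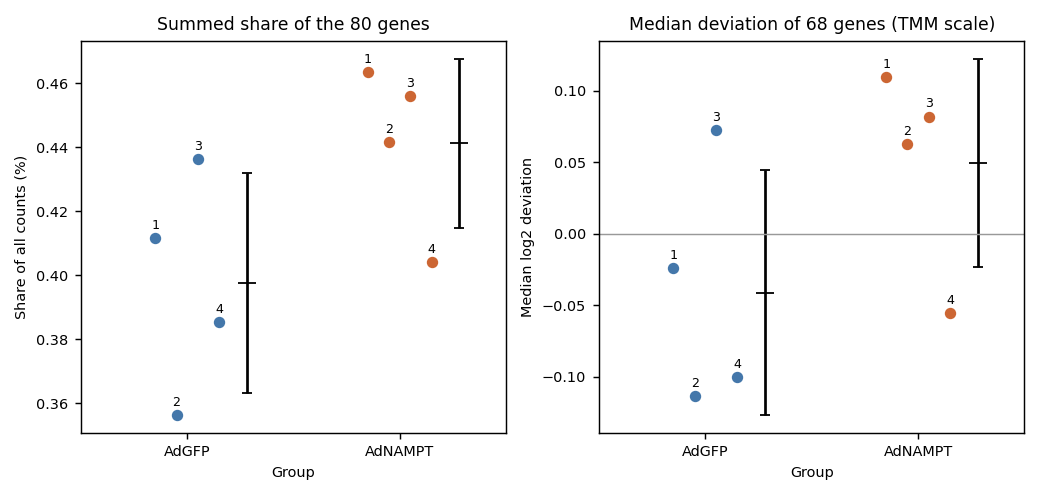
Left, percent of all counts on the 80 genes, and right, median log2 deviation of the 68 tested genes, for each library (points, numbered by replicate) with mean and SD of each group (n = 4). The vertical axes do not start at 0, and the groups overlap in both panels, with shares of 0.356% to 0.436% and 0.404% to 0.463%.

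Genes beside the members were read in the same fit. Of the core ribosomal proteins under other symbols, Rps3a1, Fau and Rack1 had log2 fold changes of 0.044, 0.048 and -0.030, with the smallest limma adjusted p of these at 0.922. The list of elongation factors, which also held Eef1e1, had a median of 0.043 over 7 genes and 4 estimates above 0. That median is the value of Eef1e1. Initiation factor 3 with the poly(A)-binding proteins and Eif4b, whose mRNAs also carry TOP motifs in part, had a median of 0.015 over 16 genes. Of these, Eif3b was lower at an unadjusted limma p of 0.0152, and none was called by limma. The 9 other TOP transcripts had a median of 0.064.

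Upstream of the ribosome, 43 biogenesis genes had a median of 0.040, with 24 estimates above and 19 below 0. Fbl, the methyltransferase of rRNA, was at 5.50 ± 0.591 CPM over AdGFP and 4.34 ± 1.41 CPM over AdNAMPT (SD, n = 4 per group, limma adjusted p = 0.338). The 19 genes of RNA polymerase I and its factors had a median of 0.057, and the 15 genes of mTORC1 and the control of TOP translation 0.050. None of these lists held a called gene. At an unadjusted p under 0.05, biogenesis had 1 gene higher and 2 lower, and the other lists 1 higher each.

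The mitochondrial ribosomal proteins, encoded in the nucleus for the ribosomes inside mitochondria, were the nearest comparison. Of 77 genes 74 passed the filter, 28 had estimates above 0 and 46 below, with a median of -0.035, beside 0.047 for the cytosolic members. At an unadjusted p under 0.05 2 were higher and 8 lower, 2.70% and 10.8% beside 4.65% and 5.04% of all genes, and none was called. The difference between the 2 families was not tested.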

How the data were processed

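RNA from 8 livers was sequenced as 50-base single reads on an Illumina HiSeq-3000. Per the labels, the authors aligned reads with STAR to GRCm38 and counted with featureCounts 1.4.5, and the study's methods state that uniquely aligned, unambiguous reads were kept. For library making, Ribo-Zero is named in the labels and poly-A selection in the methods. The deposited counts are whole reads per feature. The deposited CPM are each count scaled to its library's total, and the deposited RPKM are those CPM per kilobase of exon. Both were recomputed from the counts.

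Symbols, biotypes and transcripts came from GENCODE M21 (GRCm38), and 48 of the 80 members had the same start and end there as in the files. Library totals were 12006713 to 19879814 counts. After leaving out 355 rRNA features and genes not above 1 CPM in at least 3 libraries (2 where a library was left out), limma (voomWithQualityWeights, lmFit, eBayes) was fitted to the TMM-scaled counts by group, with Benjamini-Hochberg adjustment over all 12270 genes, a call being an adjusted p of at most 0.05. AdNAMPT 1 had the lowest sample weight (0.440). Alternatives were edgeR's quasi-likelihood test, DESeq2, no sample weights, other scalings and filters, thinning, a GC trend, a replicate block and leaving out each library. A set of members with at least 80% unique windows was added after the data were seen. The models were also run on simulated counts, drawn independently for each gene, and no result of that run is used here. Values of a few genes are not reported here, and counts and medians over the members include them. Replicates differed beyond sampling noise (chi-square per degree of freedom 11.3 to 81.8), so none was treated as a repeat deposit of another. The study counts the RNA-seq samples as 4 mice in each group. No batch is labelled.

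The members and lists were chosen with earlier results of these data known. Named were members past the threshold, those with the largest changes at an unadjusted p under 0.05 filled to 3 in each direction by p, a set fixed by role and paralogy, the 3 highest and 3 lowest by RPKM and all that failed the filter. Fits used limma 3.58.1, DESeq2 1.42.0 and edgeR 4.0.16 in R 4.3.3. Summaries and plots used Python 3.11.15 with scipy 1.17.1, pandas 2.3.3, matplotlib 3.10.9 and numpy 2.4.6.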

Additional observations from a re-analysis of the deposited data

Results flagged for a closer look

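Within a group of 4 libraries, a library was taken as apart when its distance to the nearest other, over the range of the group, exceeded Dixon's 95% critical value. This was applied to 34 values, 65 groups of 4 whose libraries were not all equal, of which chance picks out about 1 in 20, or 3.25, and 5 were found, all in AdGFP. Rps16 was at 14.1 CPM (200 reads) in AdGFP 2 and at 10.6 to 10.96 CPM in the other AdGFP libraries. Rpl5 was at 1.91 CPM (28 reads) in AdGFP 1 and at 2.81 to 2.92 CPM in the other AdGFP libraries. Rpl11 was at 2.12 CPM (29 reads) in AdGFP 4 and at 1.84 to 1.85 CPM in the other AdGFP libraries. Rpl39l was at 0.0683 CPM (1 read) in AdGFP 1 and at 0 in the other AdGFP libraries. With the others all at 0 any read is flagged by this rule, so this flag carries no information on size. Rpl8 was at 245 CPM (3466 reads) in AdGFP 2 and at 286 to 292 CPM in the other AdGFP libraries.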

How the results depend on the processing

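No member was called, in either direction, under any of the 20 alternative fits or at an adjusted p of at most 0.1, and none was lower at an unadjusted p under 0.05. The number higher at an unadjusted p under 0.05 was 12 with library size only (17.6%, beside 11.4% of all genes), 8 with scaling to nuclear protein-coding genes that are no members (11.8%, beside 9.09% of all genes) and 4 with counts thinned to the smallest library (5.97%, beside 4.49% of all genes), against 2 with TMM, and 1 to 6 with a library left out. The 6 came without AdGFP 3 (8.82%, beside 4.27% of all genes) and the 1 without AdNAMPT 2 (1.47%, beside 5.23% of all genes). There were 4 without AdNAMPT 3 (5.88%, beside 6.00% of all genes) and 4 without AdNAMPT 4 (5.88%, beside 5.56% of all genes).

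The median log2 fold change of members stayed above 0, at 0.022 (without AdGFP 4) to 0.10 (without AdNAMPT 4) with a library left out. It was 0.13 with library size only, where all genes had 0.086, so the members stood 0.046 above all genes, as they did with TMM (0.045). Under that scaling and the one to other protein-coding genes 65 of 68 estimates were above 0, against 54 with TMM and 42 (without AdGFP 2) to 62 (without AdGFP 3) with a library left out. Over the 8 tested members with at least 80% unique windows, a set chosen after seeing the data, the median was 0.036. The difference in summed share was 0.0301 to 0.0567 points with a library left out.

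Replicate numbers do not pair these libraries by the labels, and the correlations of same-numbered deviations over all genes were 0.22, -0.044, 0.21 and 0.0068. With the replicate block, 3 members were higher at an unadjusted p under 0.05 (4.41%, beside 4.61% of all genes) and 0 lower (beside 5.01% of all genes). None was called, and the median was 0.041.

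Of the 20 named members tested, 10 kept the sign of their log2 fold change in every fit, Rpl3, Rpl9 and Rps19 among them. Rpl31, Rpl36a and Rps16, with estimates below 0, are also among the 10. All of these were picked by p value from these same libraries, so their kept signs are no separate support. Rpsa is among the 10, but it passed the filter only through AdNAMPT libraries. The values with a turned sign were after thinning -0.0063 for Rplp0 and -0.0070 for Rpl8, with the GC trend removed -0.048 for Rplp1, 0.0080 for Rpl4 and -0.056 for Rpl8, with both the block and the GC trend removal -0.026 for Rplp1, -0.033 for Rpl11, -0.017 for Rps27a, 0.016 for Rpl4 and -0.060 for Rpl8, with library size only 0.062 for Rplp2 and 0.071 for Rpl4, with scaling to other protein-coding genes 0.043 for Rplp2 and 0.052 for Rpl4, with edgeR -0.018 for Rpl11 and -0.086 for Rps27a, with DESeq2 -0.016 for Rpl11 and -0.084 for Rps27a, without sample weights -0.057 for Rpl11 and -0.046 for Rps27a, with the replicate block -0.028 for Rpl11 and -0.037 for Rps27a, without the filter -0.0026 for Rps27a. With a library left out the ranges were -0.086 to 0.36 for Rpl10, -0.14 to 0.23 for Rpl11, -0.016 to 0.11 for Rpl13a, -0.031 to 0.14 for Rpl39, -0.029 to 0.0012 for Rpl4, -0.047 to 0.054 for Rpl8, -0.030 to 0.073 for Rplp0, -0.10 to 0.078 for Rplp1, -0.10 to 0.044 for Rplp2 and -0.089 to 0.14 for Rps27a. No cause was tested. The planned set of windows unique in the genome was not run, and Rpsa gave no value after thinning, where it missed the filter. The 12 members below the filter and those of few reads have the least precise values.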
